A study of Rattus norvegicus with 2 samples.

Results

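miR-23, miR-27 and miR-24 are small regulatory RNAs cut from a pair of clusters of hairpin genes, and their 3p arms were compared on native high-density lipoprotein (nHDL) kept with and without beta cells. The members were listed by name, with earlier results of these data known: miR-23a-3p, miR-23b-3p, miR-24-3p, miR-27a-3p and miR-27b-3p. All 5 were found among the 406 rat miRNAs of the reads table, 4 of them had reads, and those 4 were also among the 81 miRNAs kept, which reached 5 reads or more in either library. The samples were nHDL from human plasma kept in medium without cells (cf-nHDL) or with rat INS-1 832/13 insulinoma cells (INS-1-nHDL), a transformed line used as a model of beta cells. The incubation lasted 24 h at 3 mM glucose with nHDL at 1 mg/mL, and nHDL was then re-isolated through apoA-I. RNA of the human nHDL and of the rat cells was counted alike through its match to rat miRNAs, so the species a read came from was not analysed here. Each condition was 1 small RNA sequencing library made from a pool of 3 samples. The sequencing thus held no replicate check of any difference between the conditions, and no test between them was possible.

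A microRNA guides Argonaute to messenger RNAs mainly through its seed, the bases from 2 to 8 counted from the 5′ end, and thereby lowers their translation or stability. The mir-23a cluster holds the hairpins mir-23a, mir-27a and mir-24-2, and the mir-23b cluster holds mir-23b, mir-27b and mir-24-1. Hairpins of 1 cluster can be cut from 1 primary transcript, after which each mature miRNA is processed, loaded and degraded by itself. The clusters are widely expressed, with known roles in endothelial cells and in muscle, and miR-27 is known for restraining the formation of fat cells and for targeting genes of lipid metabolism.

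The mature sequences show how alike the members are and why their reads are hard to separate. They are written 5′ to 3′ as the authors' files give them, with T for U. Capitals mark the seed and, at position 19, the single base at which an a form and its b form differ.
miR-23a-3p: aTCACATTgccagggattTcc
miR-23b-3p: aTCACATTgccagggattAcc
miR-27a-3p: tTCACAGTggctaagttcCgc
miR-27b-3p: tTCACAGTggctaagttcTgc
miR-24-3p: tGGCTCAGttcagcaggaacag
The change from miR-23a-3p to miR-23b-3p was T19A and that from miR-27a-3p to miR-27b-3p was C19T. The forms of each pair therefore share their first 18 bases, and only 2 bases follow the difference. Reads as short as 17 bases could be aligned, since the authors kept those longer than 16 bases and allowed 1 mismatch. A read that ended before position 19 matched both forms alike, and with 1 mismatch allowed a longer read could also align to both. Reads that matched both forms were divided between them in the deposited table, which does not give their lengths. The seeds of miR-23 and miR-27 differed from each other by T7G alone. Among the 406 miRNAs, 2 carried the miR-23 seed, 2 the miR-27 seed and 1 the miR-24 seed, so no miRNA outside the members shared a seed with them.

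In the coordinates of the authors' files (rat build rno5 by the paper's name), miR-23b-3p lies on chromosome 17 from 816092 to 816112 on the plus strand, followed by miR-27b-3p from 816334 to 816354 and a copy of miR-24-3p from 816824 to 816845. miR-23a-3p lies on chromosome 19 from 36294815 to 36294835 on the plus strand, followed by miR-27a-3p from 36294979 to 36294999 and the other copy of miR-24-3p from 36295111 to 36295132. The b cluster thus spans 754 bases from its first to its last 3p arm and the a cluster 318 bases. In the RefSeq gene table of another rat assembly, GRCr8, used for names and neighbours, Mir23b, Mir27b and Mir24-1 overlap Aopep, a gene for an aminopeptidase, and Mir24-1 also overlaps Fancc and Mir3074. Mir23a, Mir27a and Mir24-2 overlap no other gene of that table and lie between the protein-coding genes Zswim4 and Nanos3.

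The hairpins of miR-24 and miR-27 are shown because they make opposite cases. RefSeq (GRCr8) gives them as follows, with the mature 3p arm in capitals.
Mir24-1: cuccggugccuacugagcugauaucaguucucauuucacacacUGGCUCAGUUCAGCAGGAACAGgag
Mir24-2: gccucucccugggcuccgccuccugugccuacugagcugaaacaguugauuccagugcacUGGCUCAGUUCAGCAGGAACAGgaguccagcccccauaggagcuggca
Mir27a: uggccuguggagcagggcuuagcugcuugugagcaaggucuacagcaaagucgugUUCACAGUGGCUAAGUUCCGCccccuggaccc
Mir27b: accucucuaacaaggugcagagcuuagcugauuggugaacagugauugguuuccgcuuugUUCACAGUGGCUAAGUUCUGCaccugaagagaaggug
Mir24-1 and Mir24-2 differ in length and in loop but hold the same miR-24-3p, which cannot be assigned to either cluster. Mir27a and Mir27b give 3p arms that can be told apart by position 19.

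The cf-nHDL library held 6587 miRNA reads and the INS-1-nHDL library 18009. miR-375-3p, the beta cell miRNA of the study, took 231 and 11219 of these in turn, or 3.51% and 62.3%, which lowers the share left for every other miRNA. Read counts were divided by DESeq2 size factors, 0.71 (cf-nHDL) and 1.41 (INS-1-nHDL), and a fold change is the ratio of these normalized counts, INS-1-nHDL over cf-nHDL. Every interval is an exact 95% interval that covers counting error of reads only, which is what counting error means below. Several reads may be PCR copies of 1 molecule, so the intervals may be too narrow for molecules. Of the beta cell markers, 5 of 6 were in the table and held 244 and 11378 reads in sum, with miR-184 and miR-96-5p at 0 in both libraries. Sums on cf-nHDL and INS-1-nHDL were 26 and 5 reads for red blood cell markers (3 of 4 in the table). They were 22 and 5 for 3 markers of myeloid cells and platelets and 5 and 5 for 2 endothelial markers. Muscle markers (2 of 4 in the table) had 11 and 8, and the liver marker miR-122-5p had 0. These lists are short, and the part of any cell type in the values below was not tested.

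miR-27 was the most abundant of the families and miR-24 had no reads at all. miR-27b-3p had 254 reads on cf-nHDL against 343 on INS-1-nHDL, rank 6 among the miRNAs in both libraries. miR-27a-3p had 136 reads on cf-nHDL, rank 10, and 95 on INS-1-nHDL, rank 16. Reads of miR-27b-3p were thus higher and those of miR-27a-3p lower on INS-1-nHDL, while the library as a whole had 2.73 times as many miRNA reads. miR-23a-3p had 28 reads on cf-nHDL against 12 on INS-1-nHDL. miR-23b-3p had 22 and 12. Both forms of miR-23 had fewer reads on INS-1-nHDL.

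**Figure D1:**
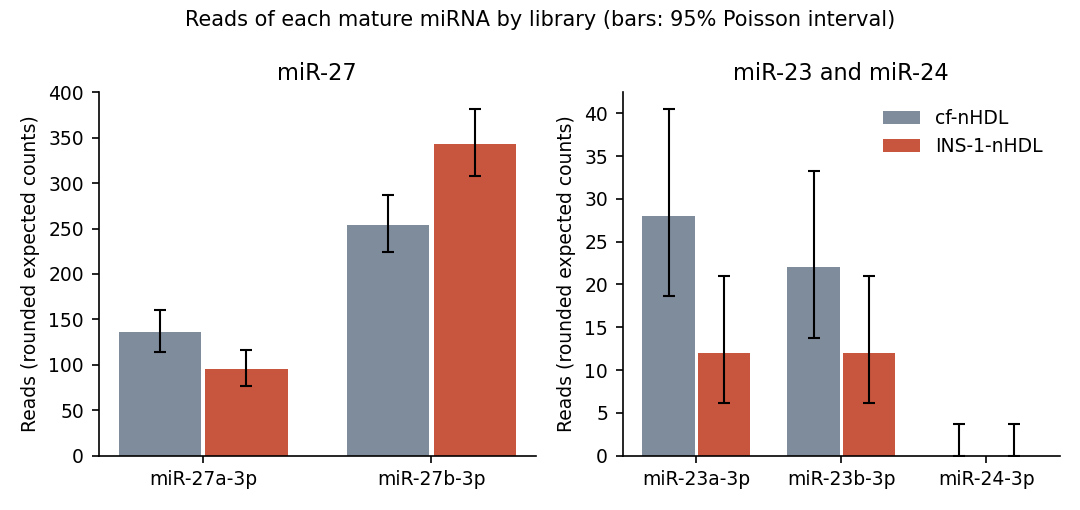
Reads of each mature miRNA (vertical axes, rounded expected counts, different ranges in the panels) on cf-nHDL and INS-1-nHDL, 1 library each, with 95% Poisson intervals for counting error. miR-27b-3p is the only member with more reads on INS-1-nHDL (343 against 254), and miR-24-3p has 0 reads in both libraries.

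The summed families do not rest on how reads were divided between the forms. miR-27, summed over a and b, had 391 reads on cf-nHDL against 438 on INS-1-nHDL. It came after miR-21-5p (508 reads) on cf-nHDL and after miR-16-5p (741 reads) on INS-1-nHDL, where miR-22-3p followed closely with 435. Its fold change was 0.565 (0.491 to 0.649), or -0.82 on the log2 scale, so that it was 1.77-fold lower on INS-1-nHDL (1.54 to 2.03). miR-23, summed over a and b, had 50 reads on cf-nHDL, at rank 14, against 25 on INS-1-nHDL, at rank 33. Its fold change was 0.252 (0.149 to 0.415), or -1.99 on the log2 scale, so that it was 3.97-fold lower (2.41 to 6.69). Both families were lower on INS-1-nHDL on this scale, miR-23 by more than miR-27.

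Of the 4 members with reads, 3 had a fold change below 1/1.5 and 0 had one above 1.5. Among all 81 miRNAs kept, 32 (39.5%) lay below 1/1.5 and 40 (49.4%) above 1.5. The fold change of miR-23a-3p was 0.216 (0.10 to 0.439) and that of miR-23b-3p was 0.275 (0.124 to 0.580). miR-27a-3p had a fold change of 0.352 (0.268 to 0.461). miR-27b-3p, at 0.681 (0.577 to 0.804), lay just inside the threshold of 1/1.5, and its interval did not overlap that of miR-27a-3p. The paper listed miR-27b-3p among additional exported miRNAs and measured it by qPCR, where its export was not reported as significant. Its methods give another glucose concentration for export assays outside the sequencing, so the measures are not alike. Of the 43 miRNAs with more than 3 reads in each library, ranked from the lowest fold change, miR-23a-3p was at rank 8, miR-23b-3p at 12, miR-27a-3p at 15 and miR-27b-3p at 22, which is the median of these 43. Over all 81 miRNAs kept, the median fold change was 1.17, above that of every member with reads, but only 56 of the 81 had reads in both libraries. The others had 0 reads in 1 library, and a miRNA could be kept through the deeper INS-1-nHDL library alone. This median and the counts past 1.5-fold include them, so 1.17 is not a like comparison for the members.

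The fold changes nearest to that of summed miR-23 were those of miR-320-3p, with 280 and 122 reads and a fold change of 0.220, and of miR-125b-2-3p, with 242 and 131 reads and a fold change of 0.273. Nearest to summed miR-27 were miR-26a-5p, with 45 and 54 reads and a fold change of 0.605, and miR-423-5p, with 28 and 23 reads and a fold change of 0.414. This likeness was taken over 2 libraries only, among miRNAs that had 10 reads or more in both.

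**Figure D2:**
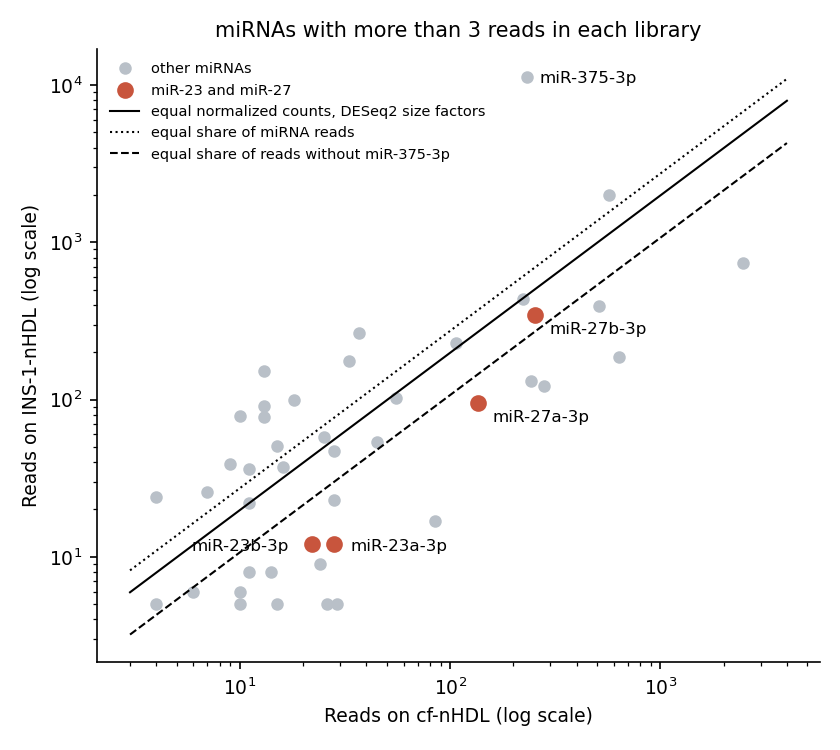
Reads on cf-nHDL (horizontal, log scale) against reads on INS-1-nHDL (vertical, log scale) for the 43 miRNAs with more than 3 reads in each library. The lines mark where a miRNA would lie with equal values after each scaling, and miR-27b-3p (254 and 343 reads) lies below the lines for size factors and for equal share of miRNA reads and above the line for reads without miR-375-3p, while the other members lie below all 3.

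The size of these differences depended on whether miR-375-3p was counted in the total. As a share of all miRNA reads, miR-27 was 5.94% (5.38 to 6.53%) on cf-nHDL against 2.43% (2.21 to 2.67%) on INS-1-nHDL, and miR-23 was 0.759% (0.564 to 1.00%) against 0.139% (0.0899 to 0.205%). Once miR-375-3p was left out of the total, 6356 and 6790 reads remained. miR-27 then took 6.15% (5.57 to 6.77%) of them on cf-nHDL and 6.45% (5.88 to 7.06%) on INS-1-nHDL, which gave a fold change of 1.05 (0.913 to 1.20). A difference in miR-27 was not detectable at this depth on that scale. miR-23 still took less, 0.787% (0.584 to 1.04%) against 0.368% (0.238 to 0.543%), and its fold change was 0.468 (0.277 to 0.771). Of its forms, miR-23a-3p had a fold change of 0.401 (0.186 to 0.815) on that scale, and miR-23b-3p had one of 0.511 (0.230 to 1.08), which holds 1. miR-27b-3p turned from lower to higher, with 3.996% against 5.05% and a fold change of 1.26 (1.07 to 1.49), whereas miR-27a-3p stayed lower, with 2.14% against 1.40% and a fold change of 0.654 (0.498 to 0.856). The 5 members in sum took 6.94% (6.33 to 7.59%) and 6.82% (6.23 to 7.44%) of the reads without miR-375-3p. Summed miR-23 and miR-27a-3p were thus lower beyond counting error with and without miR-375-3p in the total, and the direction of miR-27b-3p was not the same. All these scales are relative to other miRNA reads, so the amount of a member on nHDL was not measured.

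**Figure D3:**
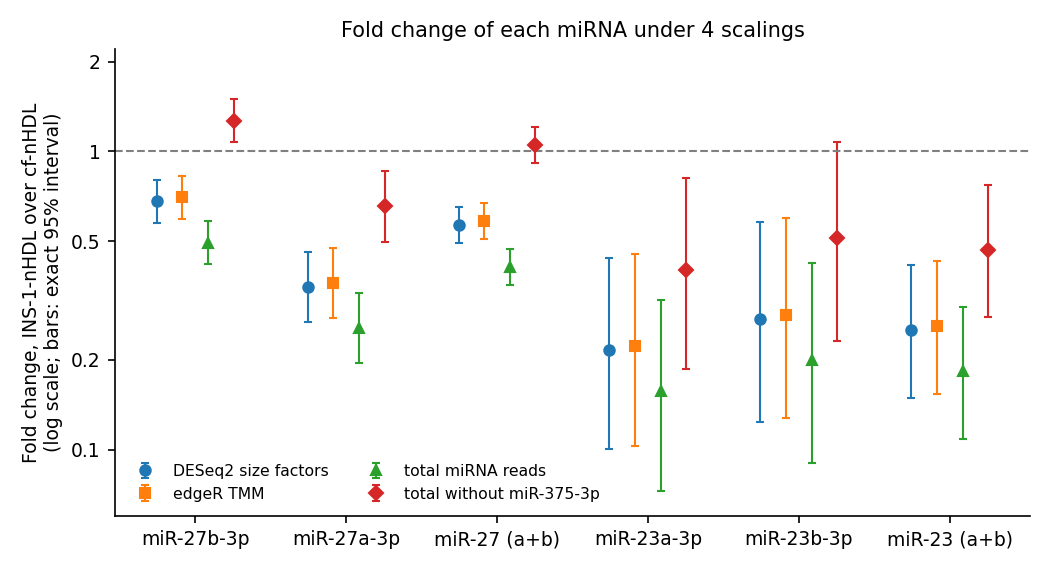
Fold change of each member and of the summed families (vertical axis, log scale, INS-1-nHDL over cf-nHDL) under 4 scalings of the libraries, with exact 95% intervals for counting error. The values of miR-23 and miR-27a-3p lie below 1 under each scaling shown, with an interval that reaches 1.08 for miR-23b-3p without miR-375-3p, whereas miR-27b-3p moves from 0.681 under size factors to 1.26 when miR-375-3p is left out of the total.

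Ratios between members within a library do not change with any scaling, and each was compared between the libraries by an odds ratio with its exact 95% interval. miR-27b-3p made up 65.1% (60.2 to 69.9%) of the miR-27 reads on cf-nHDL and 78.3% (74.2 to 82.1%) on INS-1-nHDL. The number of miR-27b-3p reads for each read of miR-27a-3p went from 1.87 to 3.61, an odds ratio of 1.93 (1.40 to 2.66). The b form of miR-27 was thus more frequent relative to the a form on INS-1-nHDL, by more than counting error. miR-23b-3p made up 44.0% (30.0 to 58.7%) of 50 miR-23 reads on cf-nHDL and 50.0% (29.1 to 70.9%) of 24 on INS-1-nHDL. Its odds ratio of 1.27 (0.428 to 3.78) holds both no change and the odds ratio seen for miR-27, so the depth did not show whether the b form of miR-23 moved. In the deposited table both forms of miR-23 stand at 12.5 reads on INS-1-nHDL, and miR-27b-3p and miR-27a-3p at 254.5 and 136.5 on cf-nHDL. These decimals show that some reads had been divided between the forms, and the number so divided cannot be read from the table, so that both shares also rest on that division.

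Among the 30 miRNAs that had 10 reads or more in both libraries, 7 pairs were paralogs of the same number and arm, and the interval of the odds ratio left out 1 for 2 of them (28.6%). Besides miR-27 this was miR-30a-5p against miR-30e-5p, with 10 and 79 reads against 28 and 47 and an odds ratio of 4.71 (1.98 to 11.8). Over all 435 pairs of these 30 miRNAs the interval left out 1 for 73.3%, so a shift between a pair of miRNAs was common in these libraries.

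Mates of the same cluster were compared in the same way. Summed over the forms, miR-27 had 7.82 reads for each read of miR-23 on cf-nHDL against 17.5 on INS-1-nHDL, an odds ratio of 2.24 (1.33 to 3.85). Within the b cluster, miR-27b-3p had 11.5 reads for each read of miR-23b-3p on cf-nHDL against 28.6 on INS-1-nHDL, an odds ratio of 2.48 (1.15 to 5.59). Within the a cluster, miR-27a-3p had 4.86 reads for each read of miR-23a-3p on cf-nHDL against 7.92 on INS-1-nHDL. That odds ratio was 1.63 (0.756 to 3.70), which holds 1. miR-27 outnumbered miR-23 in both clusters and both libraries, and its lead over miR-23 was larger on INS-1-nHDL for the summed families and for the b cluster. The b cluster against the a cluster, with miR-24 left out, had 276 reads against 164 on cf-nHDL and 356 against 108 on INS-1-nHDL, an odds ratio of 1.96 (1.45 to 2.65), in which miR-27 holds most of the reads.

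**Figure D4:**
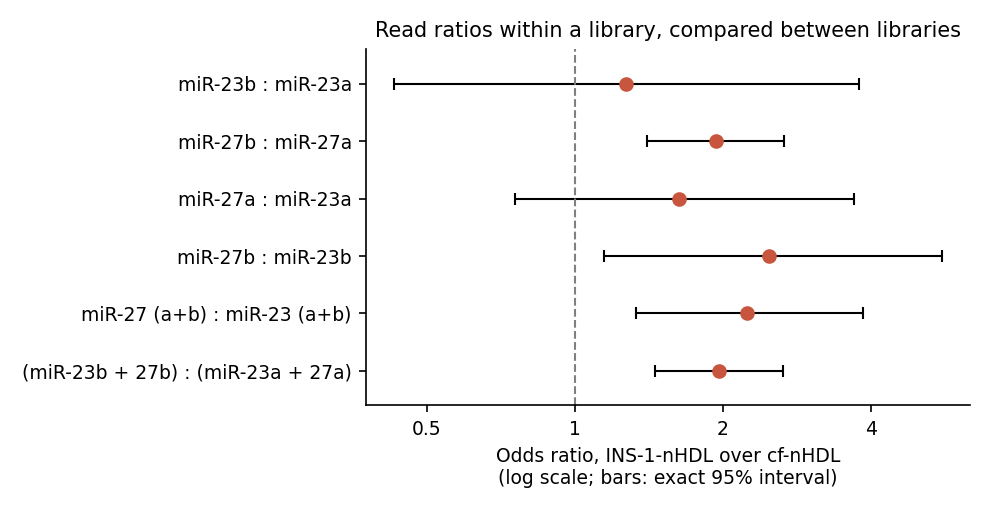
Odds ratio of each within-library read ratio (horizontal, log scale, INS-1-nHDL over cf-nHDL) with its exact 95% interval for counting error; the dashed line marks no change. The intervals of miR-27b to miR-27a (1.93), miR-27b to miR-23b (2.48), summed miR-27 to summed miR-23 (2.24) and the b to the a cluster (1.96) lie above 1, and those of miR-23b to miR-23a and miR-27a to miR-23a hold 1.

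The same comparison was made between each member and the 26 of these 30 miRNAs that are not members. Summed miR-27 had gained, with the whole interval above 1, on 6 of the 26 and had lost, with the whole interval below 1, to 16. Summed miR-23 had gained on 1 and lost to 19. miR-27b-3p had gained on 6 and lost to 14, and miR-27a-3p had gained on 4 and lost to 19. The interval thus left out 1 for 22 of the 26 with summed miR-27 and for 20 of the 26 with summed miR-23, beside 73.3% over all pairs, and miR-375-3p is among the 26.

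miR-24-3p, the third 3p arm of both clusters, had 0 reads in both libraries. If the counting step would have kept such reads, which cannot be seen from the table, 0 reads at these depths allow up to 0.0455% of the miRNA reads of cf-nHDL and up to 0.0167% of those of INS-1-nHDL (3 reads of the total, where the two-sided exact interval in the plot of reads reaches 3.69 reads). Its mates held 441 and 463 reads. miR-24-3p is listed at 2 genome positions, 1 in each cluster. Of the 39 miRNAs listed at several positions 17 had reads, and of all 406 miRNAs 122 had reads. No fold change is given for miR-24-3p, because both libraries lie under the limit that a count of 0 allows. Why it had no reads was not tested.

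Of the 6 arms from the other side of these hairpins, miR-24-1-5p, miR-24-2-5p and miR-27b-5p were in the table with 0 reads in both libraries, and miR-23a-5p, miR-23b-5p and miR-27a-5p were not analysed here. All reads of the clusters counted here were thus from the 3p arms of miR-23 and miR-27.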

How the data were processed

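The authors removed adapters with Cutadapt, aligned reads longer than 16 nt to the rat genome with Bowtie 1.1.2 and 1 mismatch allowed, and deposited expected counts per mature miRNA, not normalized, in which reads matching near-identical miRNAs were divided among them. Decimals were left at 11 miRNAs. The authors' deposited DESeq2 comparison (base mean, fold changes and p-values) was not used. Counts were rounded to whole reads, and families were summed before rounding, so that a sum can differ by 1 read from that of its rounded members. Median-of-ratios size factors came from DESeq2 1.42.0 (R 4.3.3), over the 56 of 81 kept miRNAs (at least 5 reads in at least 1 library) with reads in both libraries. Fold changes and shares have Clopper-Pearson intervals and ratios between miRNAs exact conditional odds ratio intervals (scipy 1.17.1). The computation was tested on simulated data. Depth was 6587 and 18009 miRNA reads. The members and lists were chosen with earlier results of these data known. The text names the members, the other arms of their hairpins, miR-375-3p, the 2 nearest miRNAs by fold change and the neighbours by reads; miR-30a-5p and miR-30e-5p were named after their values were seen. Marker lists were for beta, red blood, myeloid, endothelial, liver and muscle cells. The alternatives were edgeR 4.0.16 TMM, total miRNA reads with and without miR-375-3p, size factors from other sets of miRNAs, other filters, a pseudocount of 1 and unrounded counts. The origin of a read from human or rat RNA was not analysed here.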

Additional observations from a re-analysis of the deposited data

How the results depend on the processing

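No paired analysis was possible because a single library stands for either condition, which also left none to omit. Of 78 recomputed values, 65 kept their direction and stayed within the interval or within 1.5 times the count, 11 moved and 2 turned direction. Under total miRNA reads, the fold change was 0.255 for miR-27a-3p, 0.494 for miR-27b-3p and 0.410 for summed miR-27. With miR-375-3p taken out of that total it was 0.654 for miR-27a-3p and 0.468 for summed miR-23, and it turned direction for miR-27b-3p (1.26) and for summed miR-27 (1.05, with an interval that holds 1). These changes follow from the scalings themselves, which shift every log2 fold change alike, by -0.46 for the former and 0.89 for the latter. As a share of reads on INS-1-nHDL without miR-375-3p, miR-23 was 0.368% and miR-27 6.45%. The number of miRNAs above 1.5-fold was 23 when 20 reads in either library were required and 25 for intervals entirely past it. The number below 1/1.5-fold was 53 with no filter on low counts and 18 with at least 20 reads. Filters change these counts because they change which miRNAs are counted. TMM, size factors from other sets of miRNAs, a pseudocount and unrounded reads left the direction of each member's fold change and odds ratio as it was. The odds ratios that involve miR-23 rest on 12 reads of a single form, or 24 or 25 of both forms, on INS-1-nHDL, and have wide intervals.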
